A study of Mus musculus with 12 samples.

Results

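Laminins are the cross-shaped trimers, each of an alpha, a beta and a gamma chain, on which a basement membrane is built. The 9 laminin chain genes followed here are Lama1, Lama2, Lama3, Lama4, Lama5, Lamb1, Lamb2, Lamb3 and Lamc1. They were taken by name from the 19938 genes of an Affymetrix array study of sorted mouse mammary cells, in which each of the 9 has 1 probeset. A further gamma chain, Lamc3, was measured and is given beside them. Mammary epithelial cells of females 10 to 14 weeks old were depleted of other lineages and sorted for GFP and for CD24. The labels name the CD24 low cells myoepithelial and the CD24 high cells luminal. The Wnt4-deleted cells carried MMTV::Cre+, Wnt4fl/fl and mT/mG, and the WT cells MMTV::Cre+, Wnt4wt/wt and mT/mG, so Cre and the reporter are common to all 4 groups of 3 arrays. MMTV-driven Cre recombines in the mammary epithelium, and the mT/mG reporter turns recombined cells green. The design text speaks of glands and the treatment notes of grafts, and no label says how many animals gave a sample, so p-values measure only the spread between these samples.

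A laminin trimer is put together inside the cell and secreted, then polymerises and is tied to the collagen IV network by nidogen and perlecan. Cells hold it through integrins and dystroglycan, which read mainly the alpha chain, and the alpha chain therefore decides much of what a laminin does. In the mammary gland the myoepithelial cells lie on the basement membrane, between it and the luminal cells, and laminin is known there as a signal for polarity and for milk protein expression.

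Arrays are named by the number in their sample title. The Wnt4-deleted arrays are 3, 11 and 15 for CD24 low and 4, 12 and 16 for CD24 high cells, and the WT arrays are 1, 9 and 13 for CD24 low and 2, 10 and 14 for CD24 high cells. Values per array are given in this order. All levels are RMA values on the log2 scale, so a difference of 1 is a doubling. A level belongs to its own probeset, and only changes are compared between genes. Array medians lay between 5.64 and 5.82. Wnt4, the deleted gene and a secreted Wnt ligand, stood at 6.11, 6.46 and 6.78 in Wnt4-deleted CD24 high cells, against 7.42, 7.92 and 7.62 in WT CD24 high cells, and at 6.20, 6.66 and 6.28 in Wnt4-deleted CD24 low cells, against 6.49, 6.45 and 6.63 in WT CD24 low cells. The CD24 high arrays were thus lower in Wnt4 in the deleted genotype without overlap, by 1.20 ± 0.19 (SE), a difference that did not pass over all genes (adjusted p = 0.416). It was not worked out which part of Wnt4 the probes cover. All 16 myoepithelial markers were higher in CD24 low cells at an adjusted p under 0.05 in both genotypes (8.22% of all genes in Wnt4-deleted and 8.21% in WT cells). All 15 measured luminal markers were lower in both. Of these, 14 in Wnt4-deleted and 13 in WT cells had an adjusted p under 0.05 (8.23% and 7.93% of all genes). The CD24 low arrays also differed in markers of other cell types. Fibroblast markers averaged 8.15 in array 11 and 8.63 in array 9, against 6.06 to 6.82 in the other CD24 low arrays. Endothelial markers averaged 6.57 in array 3 and 6.69 in array 1, against 8.16 to 9.29 in the others, and skeletal muscle markers averaged 7.34 in array 3 and 6.64 in array 1, against 5.23 to 5.59.

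Most laminin chains were expressed more strongly in CD24 low than in CD24 high cells. In both genotypes the same 6 of 9 chains, Lama1, Lama3, Lama4, Lamb1, Lamb3 and Lamc1, were higher at an adjusted p under 0.05, and none was lower (8.23% of all genes were called lower in Wnt4-deleted and 7.93% in WT cells). Their changes ran from 1.74 to 2.86 on the log2 scale. Over all 19938 genes, 8.22% were called higher in Wnt4-deleted and 8.21% in WT cells, and 6.5% in both. The median change of the 9 chains was 2.15 in Wnt4-deleted and 2.04 in WT cells, against -0.01 and -0.02 over all genes. For the same 6 chains all 6 CD24 low arrays lay above all 6 CD24 high arrays, as they did for 8.33% of all genes. Within a genotype, 7 of 9 chains were higher without overlap in Wnt4-deleted cells (14.2% of all genes) and 7 of 9 in WT cells (15.7%). Beside the same 6 chains, these were Lama2 in Wnt4-deleted and Lamb2 in WT cells. Without arrays 9 to 12, which leaves 2 arrays a group, 4 chains were called in each genotype. In that case Lama4 (adjusted p = 0.0511 in Wnt4-deleted and 0.0876 in WT cells) and Lamc1 (0.134 and 0.0802) did not pass. RNA of sorted bulk cells cannot tell fewer cells of a type from less RNA per cell.

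**Figure D1:**
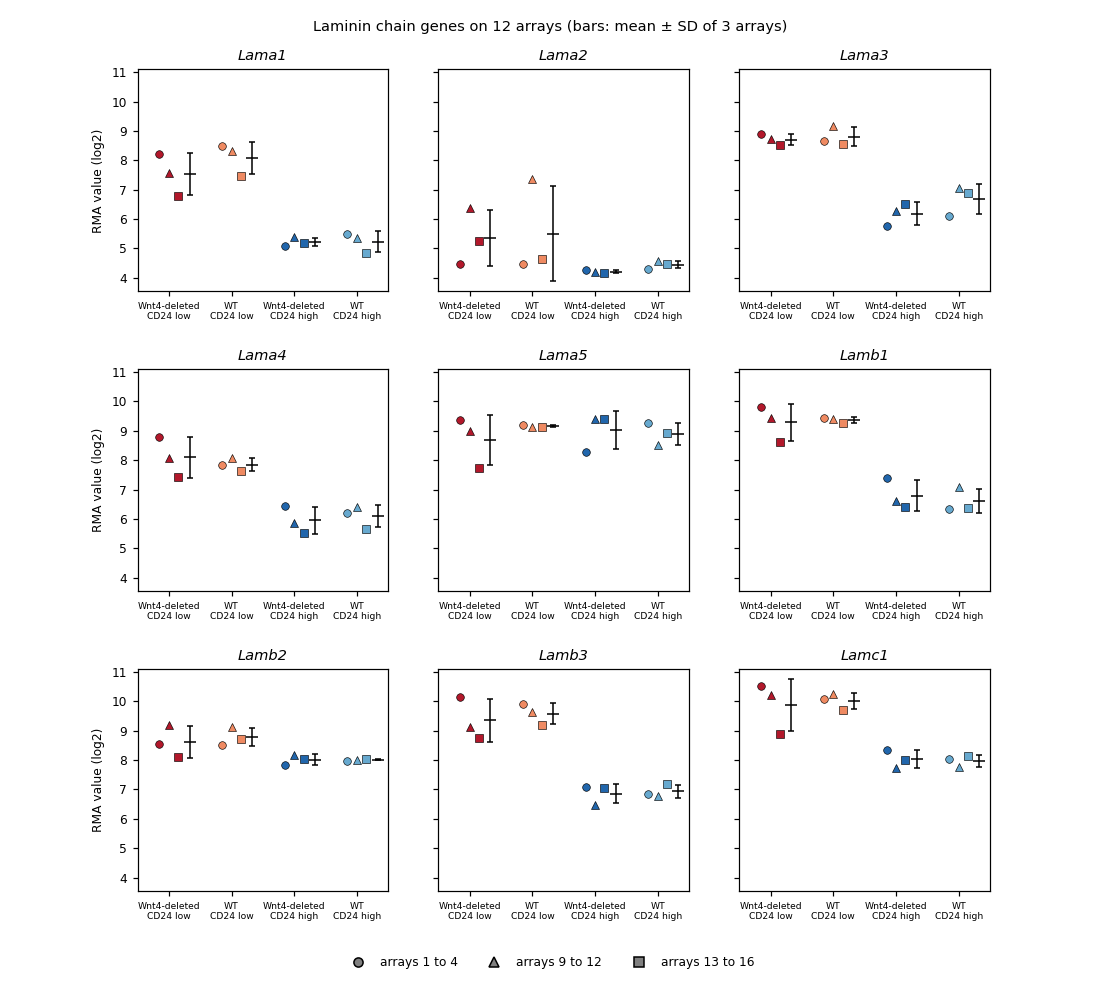
RMA values (log2, y axis) of the 9 laminin chain genes, 1 symbol per array, by group, with circles, triangles and squares for arrays 1 to 4, 9 to 12 and 13 to 16 and black bars for the mean ± SD of 3 arrays. For 6 chains every CD24 low array lies above every CD24 high array, and the CD24 low arrays overlap with the CD24 high arrays for Lama2, Lama5 and Lamb2.

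Lamb1 encodes the beta1 chain, the beta chain of the laminins found most widely. Its levels were 9.82, 9.42 and 8.60 in Wnt4-deleted CD24 low and 9.45, 9.38 and 9.27 in WT CD24 low cells, against 7.39, 6.60 and 6.39 in Wnt4-deleted CD24 high and 6.35, 7.07 and 6.38 in WT CD24 high cells. The fractions were far apart, and the 3 WT CD24 low arrays lay close together. The change was 2.49 ± 0.33 (SE) in Wnt4-deleted cells, 5.61-fold, and 2.77 ± 0.33 in WT cells, 6.81-fold (adjusted p = 0.00036 and 0.000169).

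Lamb3 encodes the beta3 chain, a partner of the alpha3 chain in the laminin that anchors epithelia to the basement membrane through hemidesmosomes. It stood at 10.16, 9.14 and 8.74 in Wnt4-deleted CD24 low and 9.91, 9.61 and 9.20 in WT CD24 low cells, against 7.06, 6.47 and 7.04 in Wnt4-deleted CD24 high and 6.83, 6.76 and 7.19 in WT CD24 high cells. Here too the fractions did not overlap, and arrays 3 and 1 were the highest of their groups. The change was 2.49 ± 0.33 (SE, 5.61-fold, adjusted p = 0.00035) in Wnt4-deleted and 2.64 ± 0.33 (6.25-fold, adjusted p = 0.000231) in WT cells. Lamb2, the beta2 chain known from neuromuscular junctions and kidney glomeruli, moved less. Its levels were 8.56, 9.19 and 8.09 in Wnt4-deleted CD24 low and 8.52, 9.12 and 8.70 in WT CD24 low cells, against 7.83, 8.17 and 8.04 in Wnt4-deleted CD24 high and 7.98, 8.01 and 8.03 in WT CD24 high cells. Within WT the fractions did not overlap, whereas in Wnt4-deleted cells array 15 lay below array 12. The difference was 0.60 ± 0.24 (SE, adjusted p = 0.131) in Wnt4-deleted and 0.77 ± 0.24 (adjusted p = 0.0533) in WT cells. Lamb2 was thus not called, and in WT cells it lay near the threshold. Without array 15 its adjusted p was 0.0237 in Wnt4-deleted and 0.0201 in WT cells. Over 25 alternatives it was called in 1 in Wnt4-deleted and in 6 in WT cells, and its adjusted p reached 0.409 and 0.195 in others.

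The upstream sequences of these beta chains and of Lama5 are shown because the genes differ so much in their change between the fractions. Each is the stretch of 250 bases before a RefSeq transcript start in GRCm38.p6, read 5′ to 3′ on the gene's own strand, and 5 of the 9 chains had such an entry. The windows are chr12:31265043-31265292 (plus strand) for Lamb1, chr1:193301993-193302242 (plus strand) for the second Lamb3 start, chr9:108479612-108479861 (plus strand) for Lamb2 and chr2:180225860-180226109 (minus strand) for Lama5. Capitals mark matches on either strand to any of 7 motifs.
Lamb1: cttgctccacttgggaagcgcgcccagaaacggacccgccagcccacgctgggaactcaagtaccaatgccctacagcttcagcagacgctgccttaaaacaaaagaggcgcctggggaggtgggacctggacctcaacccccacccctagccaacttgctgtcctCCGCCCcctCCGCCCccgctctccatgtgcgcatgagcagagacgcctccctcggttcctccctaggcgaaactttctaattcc
Lamb3: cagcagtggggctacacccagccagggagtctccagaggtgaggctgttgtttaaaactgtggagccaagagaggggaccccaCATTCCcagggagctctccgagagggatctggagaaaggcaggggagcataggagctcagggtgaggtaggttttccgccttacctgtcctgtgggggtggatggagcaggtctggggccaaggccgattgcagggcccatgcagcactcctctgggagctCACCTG
Lamb2: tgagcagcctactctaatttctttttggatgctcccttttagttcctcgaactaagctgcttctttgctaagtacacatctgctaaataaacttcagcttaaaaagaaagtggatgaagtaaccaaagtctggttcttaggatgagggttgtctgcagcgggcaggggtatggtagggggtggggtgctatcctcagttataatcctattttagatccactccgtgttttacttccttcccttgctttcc
Lama5: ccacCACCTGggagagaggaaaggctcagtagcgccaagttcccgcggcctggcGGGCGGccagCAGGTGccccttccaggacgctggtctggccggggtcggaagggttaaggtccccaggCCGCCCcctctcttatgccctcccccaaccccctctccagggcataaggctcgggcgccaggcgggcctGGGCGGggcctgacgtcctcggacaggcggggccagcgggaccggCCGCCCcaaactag
The GC box GGGCGG, which Sp1 family factors bind, was found at 2 positions before Lamb1 and at 4 before Lama5. It occurs in 32.7% of 32851 RefSeq promoter windows of that length. The E-box CAGGTG, bound by Snail and ZEB factors and found in 17.2% of windows, occurred before Lamb3 and at 2 positions before Lama5. The TEAD motif CATTCC (12.6% of windows) occurred once, before Lamb3. No window of the 5 chains held the TCF/LEF motif CTTTGAA or CTTTGAT (7.48% of windows), the AP-1 motif TGANTCA (6.75%) or the p53 family half-site (7.13%). The CArG box, which serum response factor binds and which 1.47% of windows hold, was found before Lama2. The Lamb2 window and the window of the first Lamb3 start held no match. Windows also differed in base composition, with 62.0% GC and 14 CpG before Lamb1, 72.4% and 19 before Lama5 and 43.6% and 3 before Lamb2, against a median of 52.4% and 6 over all windows. GC boxes stood before a chain that was higher in CD24 low cells (Lamb1) and before one that was not called (Lama5), and the matches are a description of letters only.

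Among the alpha chains, Lama1 showed the widest gap in WT cells. It encodes the alpha1 chain, the first described, which is prominent in embryos and has few adult sites. Lama1 levels were 8.21, 7.57 and 6.78 in Wnt4-deleted CD24 low and 8.49, 8.32 and 7.47 in WT CD24 low cells, against 5.09, 5.38 and 5.20 in Wnt4-deleted CD24 high and 5.50, 5.36 and 4.84 in WT CD24 high cells. Both CD24 low groups lay well above the CD24 high groups, and arrays 15 and 13 were the lowest of theirs. In CD24 high cells the Lama1 probeset was at percentile 37.9 of all genes in Wnt4-deleted and 37.2 in WT cells, in the lower range of the array. The change was 2.30 ± 0.35 (SE), or 4.92-fold, in Wnt4-deleted cells (adjusted p = 0.000923) and 2.86 ± 0.35, or 7.25-fold, in WT cells (adjusted p = 0.000207).

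Lama3 encodes the alpha3 chain, the partner of beta3. Its levels of 8.88, 8.73 and 8.51 in Wnt4-deleted CD24 low and 8.66, 9.17 and 8.57 in WT CD24 low cells stood against 5.77, 6.26 and 6.52 in Wnt4-deleted CD24 high and 6.09, 7.06 and 6.89 in WT CD24 high cells. The CD24 low arrays lay between 8.51 and 9.17, and arrays 4 and 2 were the lowest of the CD24 high groups. The change was 2.52 ± 0.27 (SE, 5.73-fold, adjusted p = 8.18e-05) in Wnt4-deleted and 2.12 ± 0.27 (4.34-fold, adjusted p = 0.000297) in WT cells, with no overlap in either.

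Lama4 encodes the alpha4 chain, known from the basement membranes of blood vessels and of muscle. It stood at 8.80, 8.06 and 7.41 in Wnt4-deleted CD24 low and 7.82, 8.08 and 7.63 in WT CD24 low cells, against 6.44, 5.88 and 5.52 in Wnt4-deleted CD24 high and 6.21, 6.42 and 5.67 in WT CD24 high cells. The fractions did not overlap, and array 3 was the highest of all. Lama4 was higher by 2.15 ± 0.34 (SE, 4.42-fold, adjusted p = 0.00123) in Wnt4-deleted and 1.74 ± 0.34 (3.35-fold, adjusted p = 0.00457) in WT CD24 low cells. All 14 endothelial markers were higher in CD24 low cells in both genotypes, and 8 in Wnt4-deleted and 6 in WT cells were called (8.22% and 8.21% of all genes). Of the CD24 low arrays, array 3 had the highest Lama4 value and the lowest endothelial mean (6.57), and array 11 had the highest endothelial mean (9.29) and 8.06 for Lama4. The mean of 14 skeletal muscle markers was highest in array 3 (7.34) and lowest in array 15 (5.23) of the CD24 low arrays, as was Lama4. Between these the order differed. Array 1 had a muscle mean of 6.64 and 7.82 for Lama4, and arrays 9 and 11 had muscle means of 5.37 and 5.59 and 8.08 and 8.06 for Lama4. The mean of the myoepithelial markers was likewise highest in array 3 (11.18) and lowest in array 15 (10.68). Of the 14 skeletal muscle markers, 14 in Wnt4-deleted and 12 in WT cells were higher in CD24 low cells. Called higher were 2 and 1, near the shares over all genes (8.22% and 8.21%). The part of endothelial, muscle and myoepithelial markers in the Lama4 values was not tested.

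Lama2 encodes the alpha2 chain of muscle and nerve basement membranes, and its differences rested on few arrays. Levels were 4.46, 6.38 and 5.25 in Wnt4-deleted CD24 low and 4.48, 7.36 and 4.65 in WT CD24 low cells, against 4.26, 4.21 and 4.16 in Wnt4-deleted CD24 high and 4.32, 4.58 and 4.46 in WT CD24 high cells. Arrays 9 and 11 stood out, and arrays 1 and 3 were close to the CD24 high cells. The difference of 1.15 ± 0.66 (SE) in Wnt4-deleted and 1.05 ± 0.66 in WT cells was not called (adjusted p = 0.301 and 0.374). Without arrays 9 and 11 it was 0.64 in Wnt4-deleted and 0.12 in WT cells (adjusted p = 0.0917 and 0.838). The same arrays held the highest fibroblast marker means, 8.63 in array 9 and 8.15 in array 11, followed by array 15 with 6.82, and the 3 arrays had the 3 highest Lama2 values in the same order. Pdgfra, a receptor that marks fibroblasts, stood at 8.13 in array 9 and 7.08 in array 11, against 5.12 to 5.50 in the other CD24 low arrays. Of the 12 fibroblast markers, 3 in Wnt4-deleted and 2 in WT cells were called higher in CD24 low cells (8.22% and 8.21% of all genes). Their means ranged from 6.08 to 8.15 and from 6.06 to 8.63 there, against 5.33 to 5.55 and 5.50 to 5.80 in CD24 high cells. Other lists moved with Lama2 as well. The mean of 9 immune markers was 5.20, 6.27 and 6.19 in Wnt4-deleted and 5.29, 6.54 and 5.69 in WT CD24 low arrays, which is the order of Lama2 over all 6 arrays, against 4.79 to 5.02 and 4.93 to 5.08 in CD24 high arrays. The mean of 9 pericyte markers was highest in array 11 (7.22) and array 9 (6.88), against 5.57 to 6.11 in the other CD24 low arrays. In each genotype 1 immune marker was called higher in CD24 low cells, and 1 pericyte marker in Wnt4-deleted and 0 in WT cells (limma, smallest adjusted p = 0.0773 in WT). These counts are near or below the shares over all genes. The immune marker Cd74 stood at 8.98, 8.83 and 8.46 in Wnt4-deleted and 8.46, 8.98 and 8.56 in WT CD24 low arrays. It did not follow the order of Lama2. The part of these 3 lists in the Lama2 values was not tested.

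Lama5 encodes the alpha5 chain, a main laminin chain of adult epithelia, and did not separate the fractions. It stood at 9.37, 8.98 and 7.75 in Wnt4-deleted CD24 low and 9.19, 9.13 and 9.12 in WT CD24 low cells, against 8.29, 9.41 and 9.40 in Wnt4-deleted CD24 high and 9.27, 8.52 and 8.91 in WT CD24 high cells. The groups overlapped in both genotypes, and array 15 was the lowest of all 12. The difference was -0.33 ± 0.40 (SE, 95% interval -1.22 to 0.55, adjusted p = 0.673) in Wnt4-deleted and 0.25 ± 0.40 (-0.64 to 1.13, adjusted p = 0.795) in WT cells. These intervals do not reach the changes measured for Lama1, Lama3, Lama4, Lamb1, Lamb3 or Lamc1. Without array 15 the difference in Wnt4-deleted cells was 0.14.

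Lamc1 encodes the gamma1 chain, shared by most laminins. It reached 10.53, 10.22 and 8.87 in Wnt4-deleted CD24 low and 10.08, 10.24 and 9.71 in WT CD24 low cells, against 8.34, 7.73 and 7.99 in Wnt4-deleted CD24 high and 8.04, 7.75 and 8.13 in WT CD24 high cells. All CD24 low arrays lay above all CD24 high arrays, with the narrowest margin at array 15. The change was 1.85 ± 0.36 (SE, 3.60-fold, adjusted p = 0.00411) in Wnt4-deleted and 2.04 ± 0.36 (4.11-fold, adjusted p = 0.0023) in WT cells. Lamc3, the gamma chain outside the 9, stood at 6.09, 6.34 and 5.72 in Wnt4-deleted CD24 low and 6.23, 6.19 and 5.88 in WT CD24 low cells, against 5.54, 6.05 and 5.90 in Wnt4-deleted CD24 high and 6.03, 5.84 and 5.93 in WT CD24 high cells. Its groups overlapped, with differences of 0.22 and 0.17 (SE 0.18, adjusted p = 0.494 and 0.654).

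**Figure D2:**
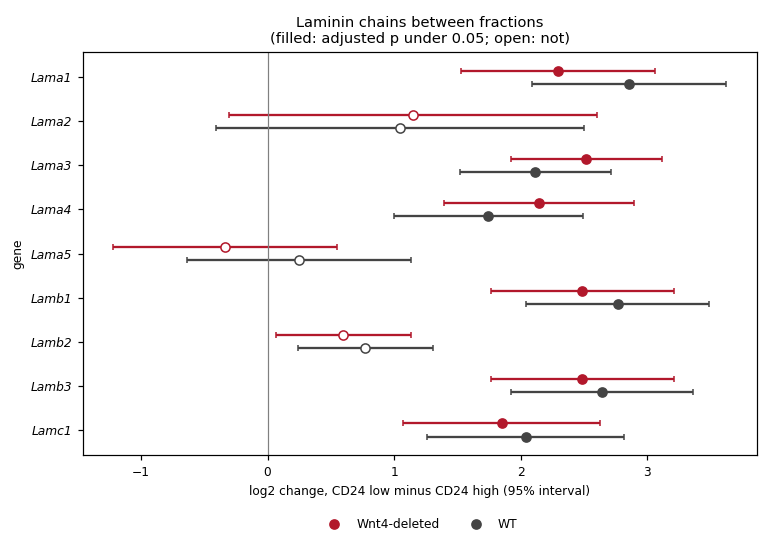
Change of each laminin chain between the fractions (x axis: log2 change, CD24 low minus CD24 high, with 95% intervals from limma) in Wnt4-deleted cells (red, upper) and WT cells (grey, lower), filled where the adjusted p is under 0.05. The 6 filled chains lie between 1.74 and 2.86 in both genotypes, Lamb2 lies at 0.60 and 0.77, and the Lama2 and Lama5 intervals cross 0.

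The balance between chains also differed between the fractions. For each of 13 pairs of alpha or of beta chains the log2 ratio was taken within each array, and its difference between the 6 CD24 low and the 6 CD24 high arrays was tested by an exact two-sided permutation test, with p-values adjusted over the 13 pairs. Such a ratio shows unequal change and cancels a shift common to all log2 values of an array. It does not cancel effects that depend on level, such as the compression of dim probesets by RMA. The height of a ratio is set by the probes, so only its shift is given. Relative to Lama5, Lama1 was higher by 2.62, Lama3 by 2.36 and Lama4 by 1.99 in CD24 low cells, and relative to Lamb2, Lamb1 was higher by 1.94. The ratio of Lamb2 over Lamb3 was lower by 1.88. Each of these pairs sets a chain called between the fractions against Lama5 or Lamb2, which were not called. Their shifts therefore restate the changes given above and are no separate evidence. In these 5 pairs the fractions did not overlap (exact permutation p = 0.00216, the smallest that 6 against 6 arrays can give, adjusted p = 0.00562 for each), and the shift had the same sign in both genotypes. The shift of Lama1 over Lama2 was 1.48 (exact permutation test, adjusted p = 0.0329), and it did not pass without any 1 of the 6 CD24 high arrays (adjusted p of 0.0683 to 0.109). Lamb1 and Lamb3 changed by like amounts, and their ratio differed by 0.06 (exact permutation p = 0.801). The other 6 pairs had adjusted p-values of 0.0598 or more.

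**Figure D3:**
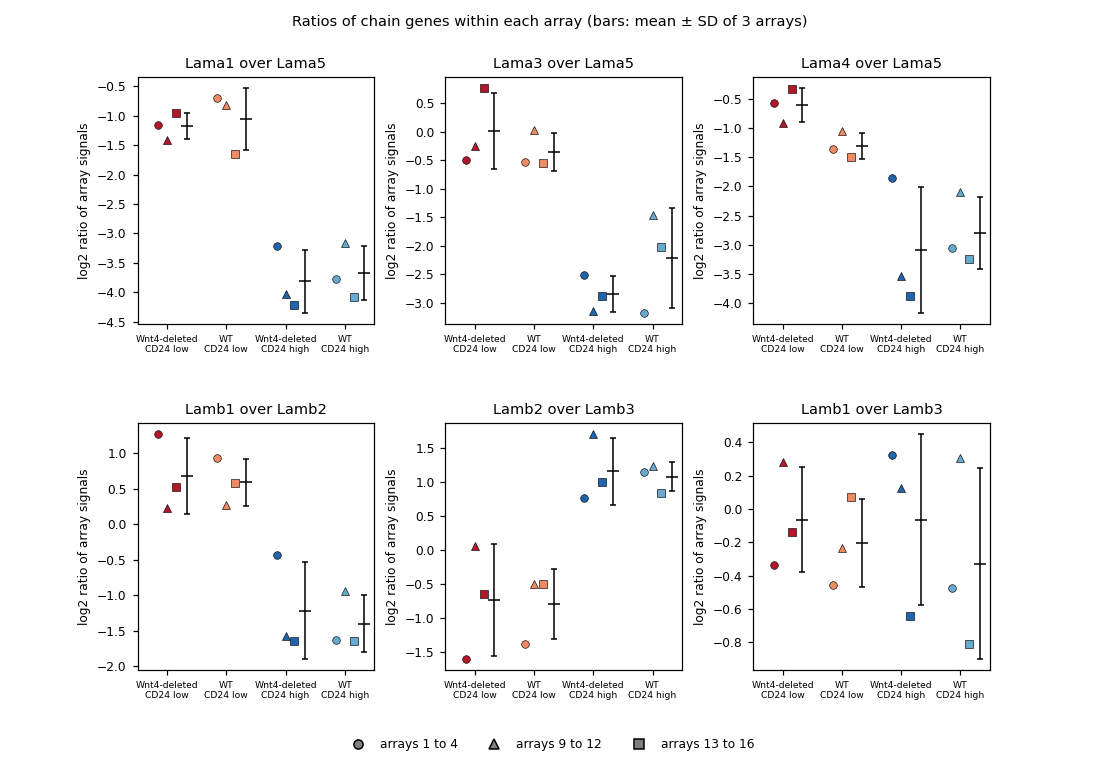
Log2 ratios of 6 pairs of laminin chain genes within each array (y axis), by group, with symbols for the sets of array numbers and black bars for the mean ± SD of 3 arrays. In 5 pairs the CD24 low arrays are apart from the CD24 high arrays, while Lamb1 over Lamb3 overlaps. The height of a ratio depends on the probes and only the shift between groups can be read.

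Across all 12 arrays, likeness was measured as the root mean square (RMS) difference between 2 genes after each was centred on its own mean, over the 7 chains whose values spanned at least 2. The arrays share the fraction contrast, so genes that changed alike between the fractions are near each other by construction. Lama1 and Lamb3 were close (RMS 0.35, rank 14 of 19937 for Lama1), as were Lama4 and Lamc1 (0.34, rank 24 for Lama4) and Lamb1 and Lamb3 (0.37). Tenm3, a teneurin of the cell surface, was nearest to Lamb3 (0.25) and to Lama1 (0.27) and among the 3 nearest to Lamb1 (0.30). Ephb1, an ephrin receptor, was at 0.30 and Sobp at 0.29 from Lama1. The nearest to Lamb1 were Epb41l2 (0.26), of the membrane skeleton, and Gnai1 (0.28), a G protein subunit, and Lamb3 was also near Tmem200a (0.25) and the kinase gene Hunk (0.28). For Lama3 they were Pxdc1 (0.23), Stac2 (0.29) and Tns4 (0.29), a tensin. For Lama4 they were Nes (0.26), the intermediate filament protein nestin, Dcbld2 (0.27) and Col18a1 (0.29), a collagen of basement membranes. Lamc1 lay nearest to Plcl1 (0.20), Gas7 (0.20) and the ETS factor gene Etv5 (0.23). Lama2 had other neighbours, Abca8a (0.12), an ABC transporter gene, Dpep1 (0.13), a dipeptidase gene, and Thbs4 (0.16), a thrombospondin gene.

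**Figure D4:**
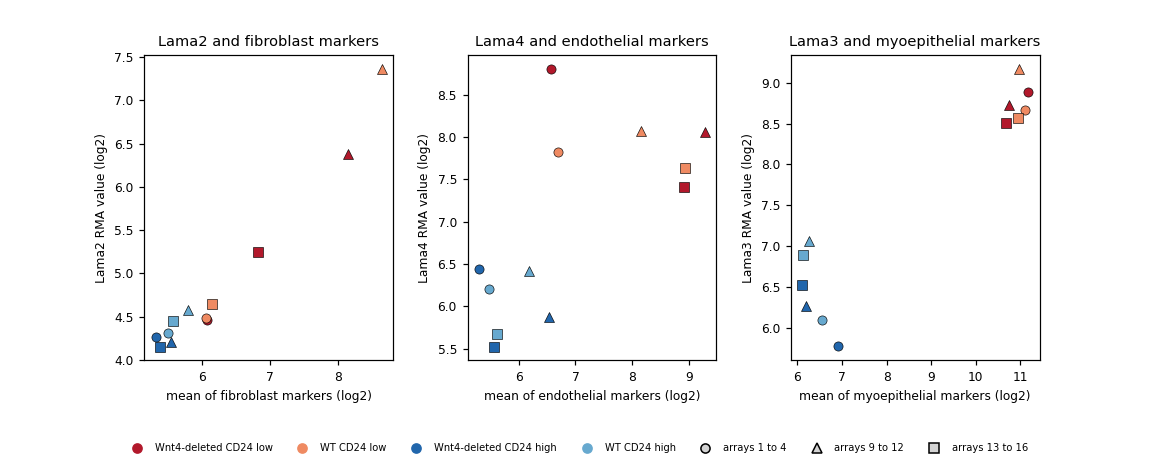
Levels of Lama2, Lama4 and Lama3 (y axes, RMA log2) on each of the 12 arrays against the mean of 12 fibroblast, 14 endothelial and 16 myoepithelial markers (x axes, log2), coloured by group, with symbols for the sets of array numbers. Lama2 is highest in arrays 9 and 11, where fibroblast markers are highest, Lama4 is highest in array 3, where endothelial markers are lowest among CD24 low arrays, and Lama3 falls into 2 clusters, one per fraction.

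Array 15, of Wnt4-deleted CD24 low cells, had the lowest value of the 6 CD24 low arrays for 8 of 9 chains, all but Lama2. Array 3 of the same group had the highest value for 5, namely Lama4, Lama5, Lamb1, Lamb3 and Lamc1. The mean of the 9 chains was 8.75 in array 3, 8.63 in array 11 and 7.78 in array 15, against 8.51, 8.93 and 8.26 in WT arrays 1, 9 and 13. In CD24 high cells it varied little, from 6.68 to 6.72 in Wnt4-deleted and from 6.72 to 6.84 in WT arrays. Myoepithelial markers averaged 11.18, 10.75 and 10.68 in Wnt4-deleted and 11.12, 10.97 and 10.94 in WT CD24 low arrays, so array 15 was the lowest here as well. It was also the lowest CD24 low array in the means of the hemidesmosome genes (9.10 against 9.84 to 10.02), of the basement membrane partners (7.21 against 7.63 to 8.02) and of the laminin receptor genes (8.79 against 9.17 to 9.48) described further on. The part of these genes in the laminin values was not tested.

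The comparison of Wnt4-deleted with WT cells asks whether a laminin chain depends on Wnt4, the ligand that luminal cells send to myoepithelial cells. No chain was called in either fraction by limma (0 of 9 at an adjusted p under 0.05, and 0 of 9 at an unadjusted p under 0.05). Over all genes 1 gene, or 0.00502%, was called in each, and an unadjusted p under 0.05 was found for 3.06% of genes in CD24 low cells and 1.99% in CD24 high cells. In CD24 low cells 8 of 9 chains were lower in Wnt4-deleted than in WT cells, as were 54.6% of all genes, with a median of -0.14 for the chains and -0.02 for all genes. Lama1 had the largest difference, -0.57 ± 0.35 (SE, 95% interval -1.34 to 0.20, unadjusted p = 0.131, adjusted p = 1). It was lower in 3 of 3 sets of array numbers (1 to 4, 9 to 12 and 13 to 16), by -0.75 to -0.28. No label pairs the arrays of a set, and the share of all genes with the same sign in every set was not worked out. The other chains differed by -0.45 (Lama5) to 0.25 (Lama4). These signs turned with single arrays. Without array 15 Lama1 was at -0.20 and Lama2 at -0.08, but Lamc1 was at 0.36, Lamb1 at 0.25, Lamb2 at 0.09, Lamb3 at 0.07, Lama5 at 0.03 and Lama3 at 0.01. Without array 9 Lama2 was at 0.79, Lama3 at 0.089 and Lamb2 at 0.0015, and without array 3 Lama2 was at 0.31 and Lama4 at -0.11.

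In CD24 high cells 4 chains were higher and 5 lower in Wnt4-deleted cells, against 56.6% of all genes lower. Lama3 differed most, with 5.77, 6.26 and 6.52 in Wnt4-deleted and 6.09, 7.06 and 6.89 in WT cells. The groups overlapped, the difference was -0.50 ± 0.27 (SE, 95% interval -1.09 to 0.10, unadjusted p = 0.0949, adjusted p = 1), and it was lower in 3 of 3 sets. For Lama2 the Wnt4-deleted arrays (4.16 to 4.26) lay below the WT arrays (4.32 to 4.58), and 4.97% of all genes were lower without overlap. The Lama2 difference was -0.24 ± 0.66 (SE), at the low end of the array's range, and it too was lower in 3 of 3 sets. This SE uses 1 spread shared by all 4 groups. The SD of Lama2 was 0.05 in Wnt4-deleted and 0.13 in WT CD24 high arrays, against 0.96 and 1.61 in CD24 low arrays. The remaining 7 chains differed by -0.15 (Lama4) to 0.19 (Lamb1). In both fractions, changes of more than 1 in either direction lay outside the 95% limma intervals of Lama4, Lamb1, Lamb2, Lamb3 and Lamc1. The same held for Lama1 in CD24 high and for Lama3 in CD24 low cells. These intervals use the same shared spread. For the 5 chains the SD was 0.55 (Lamb2) to 0.88 (Lamc1) in Wnt4-deleted CD24 low arrays. In Wnt4-deleted CD24 high arrays it was 0.17 (Lamb2) to 0.53 (Lamb1). The CD24 low intervals may thus be too narrow, and a change of more than 1 is not excluded there. The intervals of Lama2 and Lama5 in both fractions, of Lama1 in CD24 low and of Lama3 in CD24 high cells reached beyond 1 in at least 1 direction. The difference of the genotype effects between the fractions was called for 0 of 9 chains and for 0 genes (0%) by limma, with 273 of 19938 genes, 1.37%, and 0 of 9 chains at an unadjusted p under 0.05.

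**Figure D5:**
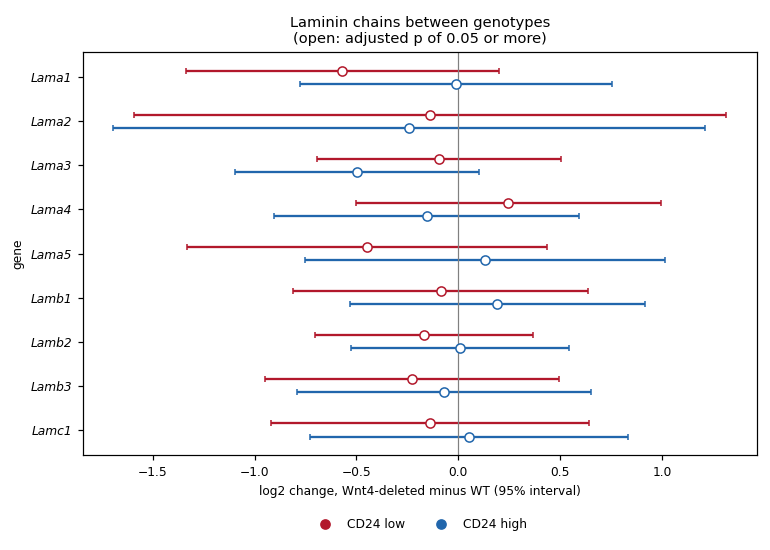
Change of each laminin chain between the genotypes (x axis: log2 change, Wnt4-deleted minus WT, with 95% intervals from limma) in CD24 low cells (red, upper) and CD24 high cells (blue, lower). All symbols are open, since no adjusted p is under 0.05, and every interval includes 0.

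Genes whose proteins bind laminin or build the basement membrane with it were read from lists. Of 13 laminin receptor genes, 11 were higher in CD24 low cells in each genotype, with a median change of 0.52 in Wnt4-deleted and 0.89 in WT cells. Called higher were 5 in Wnt4-deleted and 8 in WT cells (8.22% and 8.21% of all genes). Called lower were 0 and 1 (8.23% and 7.93%). Itga1, the alpha1 integrin subunit for collagen and laminin, was higher by 4.17 ± 0.22 (SE) in Wnt4-deleted and 3.77 ± 0.22 in WT cells. Itga3, whose alpha3 integrin binds the alpha3 and alpha5 laminin chains, was higher by 1.25 and 1.95 (SE 0.30), and Bcam, a surface receptor for Lama5, by 1.54 and 1.90 (SE 0.20). Dag1, dystroglycan, differed by 0.67 ± 0.37 in Wnt4-deleted cells (adjusted p = 0.275) and was higher by 1.23 ± 0.37 in WT cells (adjusted p = 0.041). Itga2, an integrin subunit for collagen and laminin, differed by -0.15 in Wnt4-deleted cells (adjusted p = 0.779) and fell by 0.86 in WT cells (SE 0.26, adjusted p = 0.0445). Of 9 measured genes for the sugars by which dystroglycan holds laminin, 5 were higher in CD24 low cells in each genotype. Called higher were 0 in Wnt4-deleted and 2 in WT cells (8.22% and 8.21% of all genes), B4gat1 by 0.81 and Pomt2 by 0.70.

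The hemidesmosome joins the laminin of alpha3 and beta3 to keratin filaments. Of its 6 genes, 3 of which are also in the receptor list, 3 in Wnt4-deleted and 4 in WT cells were called higher in CD24 low cells (8.22% and 8.21% of all genes). Col17a1, its transmembrane collagen, was higher by 3.49 ± 0.33 (SE) in Wnt4-deleted and 3.80 ± 0.33 in WT cells, Itgb4 by 0.73 and 1.07 (SE 0.21) and Itga6 by 0.80 and 0.89 (SE 0.23). Cd151, a tetraspanin bound to laminin integrins, differed by 0.44 ± 0.33 in Wnt4-deleted cells (adjusted p = 0.454) and was higher by 1.20 ± 0.33 in WT cells (adjusted p = 0.0309). Of 20 basement membrane partners 18 were higher in each genotype, with medians of 1.12 in Wnt4-deleted and 1.13 in WT cells. In each genotype 12 were called higher (8.22% and 8.21% of all genes) and none was called lower (8.23% and 7.93%). Sparc, which binds collagen IV, was higher by 4.46 and 4.47 (SE 0.41), Hspg2, the perlecan gene, by 2.76 and 3.23 (SE 0.35), Fbln2, a fibulin, by 2.95 and 3.04 (SE 0.25) and Nid1, the nidogen that binds the gamma1 chain, by 2.99 and 2.44 (SE 0.38), in Wnt4-deleted cells and in WT cells.

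Of 9 secreted or surface proteases, among them those known to trim laminin chains, 8 in Wnt4-deleted and 7 in WT cells were higher in CD24 low cells. In each genotype 3 were called higher (8.22% and 8.21% of all genes). Mmp2, a gelatinase, was higher by 4.27 ± 0.23 (SE) in Wnt4-deleted and 4.60 ± 0.23 in WT cells, Adamts18, the protease of the study's title, by 2.95 and 3.39 (SE 0.30), and Bmp1, which trims chains of the alpha3 laminin, by 1.10 and 1.33 (SE 0.19). Hpn, the surface protease hepsin, fell by 0.65 in Wnt4-deleted CD24 low cells (adjusted p = 0.0261) and differed by -0.53 in WT cells (SE 0.17 for both, adjusted p = 0.0622). Between the genotypes 0 genes were called in each of these 5 lists in both fractions by limma, where 1 gene, or 0.00502%, was called over all genes in each fraction.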

How the data were processed

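RNA of 12 sorted cell samples, 3 per group, was hybridised to 1 array each. Per the labels, RNA was extracted with Trizol and labelled through Ovation amplification. The deposited values are log2 values that the authors made by RMA in Affymetrix Expression Console 1.1.2800, that is after background correction, quantile normalisation and summary of probes. RMA compresses differences of dim probesets. There is no read depth, so precision depends on the number of arrays. Of 35556 probesets, the 21789 with 1 gene symbol gave 19938 genes, each by its probeset of highest mean. Those with several symbols (1621) or none in the gene table (12146) were left out. Comparisons were made with limma (3.58.1, under R 4.3.3) on all 12 arrays, each group with its own mean, two-sided, with Benjamini-Hochberg adjustment over all genes within each of 5 comparisons and a threshold of 0.05. The methods text used here names no test for the arrays. The model was tested on simulated data. Groups come from the sample titles. The members, the gene lists and the tests were chosen with earlier results of these data known. Named genes are the 9 chains, Lamc3, up to 4 called genes per list and direction in WT (any in the genotype comparisons), the 3 genes most like each chain that spans at least 2, and markers that move with a chain, and Hpn was added after its value was seen. Promoter windows are RefSeq's. Alternatives were a filter at the 40th percentile of mean level, mean probesets, median centring, a second quantile normalisation, a trended robust prior, fits on the compared groups, a block, a threshold of 0.01 and leaving out arrays. Those without arrays 9 and 11, without arrays 1 and 3 and those of the chain ratios were chosen after seeing the data.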

Additional observations from a re-analysis of the deposited data

How the results depend on the processing

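In all 25 alternatives Lama1, Lama3, Lamb1 and Lamb3 were called higher in CD24 low cells in both genotypes, and no chain was called between genotypes. The number of chains called between the fractions was 4 to 7 in each genotype, 6 or 7 with any 1 array left out, and the seventh was Lamb2. Lamb2 was called in WT cells with the filter on low values, in the fit of the compared groups, with the block, and without array 11, array 15 or arrays 9 and 11 (adjusted p of 0.0138 to 0.0487). In Wnt4-deleted cells it was called only without array 15 (adjusted p = 0.0237). In the other alternatives its adjusted p reached 0.409 in Wnt4-deleted and 0.195 in WT cells. Of the settings with 1 array or a pair of arrays left out, none lost Lama4 or Lamc1, and leaving out arrays 9 to 12 lost both. Over all genes, 3278 were called in Wnt4-deleted and 3218 in WT cells. These counts were 1405 and 1374 without arrays 9 to 12, 1350 and 1339 without arrays 13 to 16, 1854 and 1843 at 0.01, and 2156 in Wnt4-deleted cells without array 16. Between genotypes 0 to 2 genes were called in CD24 low and 0 or 1 in CD24 high cells.

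No label ties arrays of different groups to each other. Sets of array numbers (1 to 4, 9 to 12, 13 to 16) had correlations of deviations from the group means between -0.14 and 0.70, and not every pair was above 0.1. With the sets as a replicate block, 6 chains were called in Wnt4-deleted and 7 in WT cells and 0 between genotypes, and 3747 and 3624 genes between the fractions.

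Without a whole set, 4 against 4 arrays remain, and the smallest p that the exact permutation test can then give is 0.0286. The 5 shifts without overlap kept their sign and stood at this p. No shift of a chain ratio passed after adjustment over the 13 pairs, where the smallest adjusted p was 0.0531. With so few arrays the adjusted test can hardly pass, so it does not show whether a shift depends on a set. The shift of Lamb1 over Lamb3 was -0.26 without arrays 13 to 16 and -0.061 to 0.17 with 1 array left out.

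Differences that were not called changed sign as follows. For Lama5 in Wnt4-deleted cells the difference between fractions was 0.33 without arrays 13 to 16 and -0.71 to 0.14 with 1 array left out. In CD24 low cells, Wnt4-deleted minus WT, with 1 array left out the range was -0.65 to 0.79 for Lama2, -0.21 to 0.089 for Lama3, -0.11 to 0.59 for Lama4, -0.79 to 0.028 for Lama5, -0.36 to 0.25 for Lamb1, -0.46 to 0.094 for Lamb2, -0.63 to 0.074 for Lamb3 and -0.47 to 0.36 for Lamc1. Without arrays 9 to 12, or 9 and 11, Lama2 was at 0.29 and Lama3 at 0.079. Without arrays 1 to 4, or 1 and 3, Lama4 was at -0.12. Without arrays 13 to 16, Lama5 was at 0.016, Lamb1 at 0.20, Lamb2 at 0.054 and Lamc1 at 0.21. In CD24 high cells the range was -0.21 to 0.12 for Lama1, -0.40 to 0.056 for Lama4, -0.057 to 0.50 for Lama5, -0.11 to 0.43 for Lamb1, -0.074 to 0.099 for Lamb2, -0.18 to 0.12 for Lamb3 and -0.11 to 0.20 for Lamc1. Lama1 was at 0.016 with median centring, 0.035 after a second quantile normalisation and 0.19 without arrays 1 to 4, and Lamb2 at -0.042 after a second quantile normalisation. Without arrays 9 to 12, Lama4 was at 0.040, Lama5 at -0.24, Lamb2 at -0.073 and Lamb3 at 0.042. Without arrays 1 to 4, Lamb1 was at -0.23 and Lamc1 at -0.075, and without arrays 13 to 16 Lama5 was at -0.044. The causes were not tested. Lama2 did not pass the filter on low values, and its level lay low on the array, so small differences of it are least precise.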
